A study of Mus musculus with 17 samples.

Results

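The genes described here encode the protein subunits of the mitochondrial ribosome. They were taken as every gene whose symbol begins with Mrpl or Mrps and a number, with pseudogenes left out, which gave 77 protein-coding genes (48 Mrpl and 29 Mrps) of 41388 genes in the count tables. The study deleted Bap1, a nuclear deubiquitinase of histone H2A, in myeloid cells of mice, and asked how its loss alters transcription in osteoclast precursors. Bone marrow macrophages (BMM) were grown in M-CSF, and osteoclast cultures (OC) received M-CSF with 100 ng/ml RANKL for 24 h. Poly(A) RNA of 17 cultures was sequenced, with 3 libraries of Bap1flox BMM (numbered 1 to 3), 3 of Bap1LysM BMM (1 to 3), 6 of Bap1flox OC (1 to 6) and 5 of Bap1LysM OC (1, 2, 4, 5 and 6). Cells of both genotypes carried loxP sites on both Bap1 alleles. Bap1LysM mice also carried 1 copy of LysM-Cre, which is inserted in the lysozyme gene Lyz2 and is active in macrophages, neutrophils and other myeloid cells. Bap1flox littermates had no Cre. The OC were from male mice of 20 weeks, by the study's account of its RNA-seq, and the age, sex and strain for the BMM libraries were not taken from the sources used here. The number in a title was the only label that tied libraries to a mouse or culture, so the p-values below measure the spread between these samples.

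Mitochondria hold their own ribosomes, which translate a handful of mRNAs made from mitochondrial DNA into core subunits of the respiratory chain. The RNA of these ribosomes is made inside the organelle, whereas every ribosomal protein is encoded in the nucleus, translated in the cytosol and imported. Osteoclasts are rich in mitochondria, and RANKL is the cytokine that drives macrophages towards this fate. By name, Mrpl genes belong to the large subunit, which joins amino acids, and Mrps genes to the small subunit, which reads the mRNA. Some names do not match the place of the protein: MRPS18A and MRPS30 sit in the large subunit, and MRPS36 is now known as a component of the oxoglutarate dehydrogenase complex.

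Libraries held 37967542 to 61369441 counts. Lyz2, which the Cre insertion interrupts, was at 0.148% to 0.485% of the mean of the Bap1flox libraries of the same state in 6 of 8 Bap1LysM libraries. In the libraries labelled Bap1LysM BMM 1 and Bap1LysM OC 1 it was at 45.7% and 80.6%. The 1 copy of the Cre that the study's methods give would leave the other Lyz2 allele intact, so the 6 libraries with almost no Lyz2 are at odds with that copy number, while the number 1 libraries stand apart from the rest of their group. The copy number in each mouse was not tested, and the members' counts and medians are given with and without the number 1 libraries. Values of single genes in Bap1LysM and the marker calls include them unless stated. Bap1 itself was at 70.6 to 88.0 normalised CPM (counts scaled by library size) in Bap1flox libraries and 58.7 to 84.3 in Bap1LysM libraries, and counts over the whole gene do not check the excised part. Macrophage markers were abundant in every library, and the 10 osteoclast markers summed to 240 to 386 normalised CPM in BMM and 6056 to 16360 in OC, with the lowest OC value in Bap1LysM OC 1. The 8 neutrophil markers summed to 462 to 625 normalised CPM in Bap1LysM OC 4 to 6, against 63.8 to 185 in the 6 Bap1flox OC libraries. Between the genotypes in OC, 7 of 8 neutrophil and 2 of 6 macrophage markers were called higher in Bap1LysM and 1 of 10 osteoclast markers lower, beside 7.12% and 8.67% of all genes. Stromal markers summed to 1098 to 1893 normalised CPM in Bap1flox OC 1 to 3 and to 174 to 310 in Bap1flox OC 4 to 6. The 6 markers of B and plasma cells summed to 6.04 to 10.1 normalised CPM in Bap1LysM OC and to 1.94 to 3.92 in Bap1flox OC, without overlap, and the part of these cells in the differences between genotypes was not tested. Markers of T and NK cells and of erythroid cells each summed to under 1 normalised CPM in every library. Replicates 1 to 3 and 4 to 6 are called library sets here because only the numbers 1 to 3 have BMM, and mRNAs made from mitochondrial DNA summed to 4012 to 8713 normalised CPM in Bap1flox OC 1 to 3 and to 21940 to 34450 in Bap1flox OC 4 to 6. Among the 76 members tested, 33 were higher in every one of Bap1flox OC 4 to 6 than in Bap1flox OC 1 to 3 and 8 were lower, beside 32.4% and 25.3% of all genes tested in OC.

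Normalised CPM are further scaled by TMM factors, which correct for a few strongly expressed genes, over all 17 libraries. On this scale the members summed to 1659, 1825 and 1752 in Bap1flox BMM and to 1871, 1951 and 1858 in Bap1LysM BMM. In Bap1flox OC the sums were lowest at 2885, had a median of 2991 and reached 3389. In Bap1LysM OC they were 2451, 3125, 3180, 3132 and 3165 in libraries 1, 2, 4, 5 and 6. Every OC library was above every BMM library. On this scale the genotypes overlapped in OC and did not in BMM, where the Bap1LysM libraries were the higher ones. Without the TMM factors they overlapped in BMM too. The members' summed CPM was then 1591, 1793 and 1720 in Bap1flox BMM and 1706, 1936 and 1779 in Bap1LysM BMM. In bulk RNA a change in the share of cells of a type and a change in RNA per cell cannot be told apart.

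**Figure D1:**
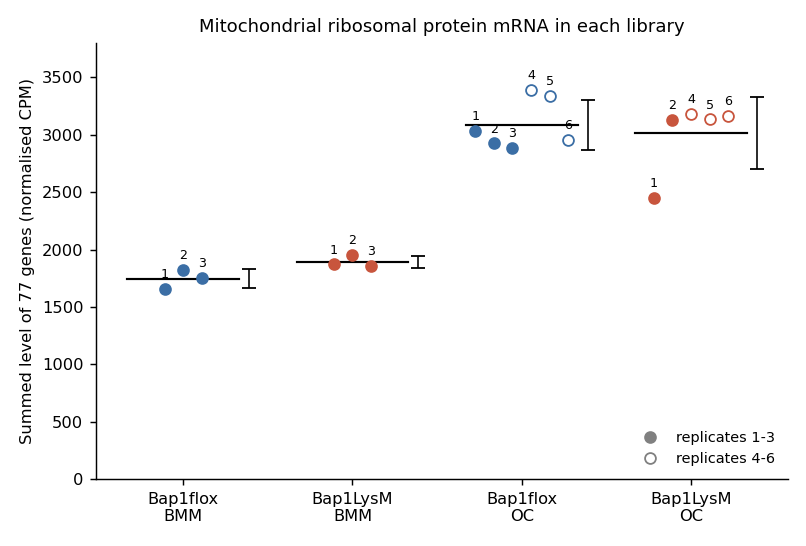
Summed level of the 77 mitochondrial ribosomal protein genes (y axis, normalised CPM from 0) in each of 17 libraries, by group. Points are libraries with their label number, filled for replicates 1 to 3 and open for 4 to 6, horizontal lines are group means and the bars beside them 1 SD (n = 3, 3, 6 and 5). The OC libraries lie between 2451 and 3389 and the BMM libraries between 1659 and 1951, and Bap1LysM OC 1 is the lowest OC library.

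Levels of different genes were compared per length, as the authors' RPKM (reads per kilobase of exon, scaled by library size). The highest means over the 17 libraries, OC and BMM pooled, were those of Mrpl52 (135 RPKM), Mrpl42 (78.4) and Mrpl34 (65.2). The order differed between groups: in Bap1LysM BMM 1 to 3 Mrpl4 was at 43.6, 57.6 and 48.3 RPKM and Mrpl52 at 42.8, 45.7 and 49.8, which overlap. Mrpl52, Mrpl42 and Mrpl34 encode proteins of the large subunit and are short genes of 412, 666 and 645 exonic bases. The lowest means were those of Mrpl47 at 3.79 and Mrps10 at 2.90, whose exons, counted over all annotated transcripts, span 3420 and 8079 bases. Mrpl53 had 0 counts in every library. In the annotation, 87.1% of its exonic bases also belong to Gm42688, and the authors counted no read that fell on 2 genes, so its level is uncertain. The other 76 members passed the filter for expressed genes in each comparison, with a CPM above 1 in 2 or more libraries (4 in the comparison of OC). For 26 members some exonic bases are shared with another gene, and for Mrpl53, Mrps34 (77.8%) and Mrps25 (53.7%) this is most of them, so their counts are uncertain. Whether counting used the strand was not given in the sources used here.

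The effect of RANKL was measured in Bap1flox cells as replicates 1 to 3 of OC against replicates 1 to 3 of BMM. Nearly the whole family rose: 70 of 76 members were higher in OC, 1 was lower, and 5 did not pass the test (edgeR's quasi-likelihood test, Benjamini-Hochberg adjusted p under 0.05 over 13412 genes). Of all genes tested, 64.6% were called, 31.7% as higher and 32.9% as lower. The members' median log2 fold change was 0.72, against -0.05 for all genes, and single members ranged from -0.46 to 2.67. Both groups of names took part, with 44 of 47 Mrpl genes higher (median 0.75) and 26 of 29 Mrps genes higher (median 0.71). In 71 members every OC library was above every BMM library and in 1 below, beside 35.6% and 35.8% of all genes. A total of 19 members were at least doubled in OC.

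Mrps6 (chr16:92058270-92112227, plus strand, GRCm38), whose product lies on the platform of the small subunit, rose most. It was at 4.23, 7.19 and 7.25 normalised CPM in Bap1flox BMM 1 to 3 and at 37.6, 40.6 and 41.7 in OC 1 to 3. The groups were far apart, and the difference was 2.67 on the log2 scale (SE 0.21, adjusted p = 5.48e-05). Of its exonic bases 159, or 15.1%, are shared with Slc5a3, an inositol transporter gene, and Slc5a3 rose by a log2 fold change of 2.98 (SE 0.21, adjusted p = 3.73e-05) in the same test. The part of that overlap in the Mrps6 value was not tested.

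Mrpl12, part of the flexible stalk of the large subunit that recruits translation factors, was next. Its level was 16.7, 20.3 and 17.9 normalised CPM in BMM and 65.5, 70.2 and 69.9 in OC, a 3.72-fold rise (log2 1.89, SE 0.09, adjusted p = 9.09e-06). The genes for the proteins that anchor this stalk moved less: Mrpl10 rose by 0.43 and Mrpl11 by 0.66 on the log2 scale (adjusted p = 0.0033 and 0.00084). Mrpl52, the gene with the highest mean RPKM over the 17 libraries, went from 21.7, 24.0 and 26.1 normalised CPM in BMM to 71.9, 78.0 and 75.9 in OC (log2 1.64, SE 0.09, adjusted p = 1.34e-05). Mrpl47, which encodes a protein near the exit of the peptide tunnel, rose by 1.45 (SE 0.12, adjusted p = 5.9e-05) from a low level of 5.71 to 6.50 normalised CPM in BMM.

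In the small subunit, Mrps18b was at 6.35, 9.12 and 6.04 normalised CPM in BMM and close to 24.0 in all 3 OC libraries (log2 1.73, SE 0.16, adjusted p = 0.00012). Of its exonic bases 30.5% are shared with Gm16279, and the part of these bases in its value was not tested. The paralogs of Mrps18b responded less. Mrps18a rose by 0.69 (SE 0.06, adjusted p = 0.00011), and Mrps18c, with a log2 fold change of 0.30 (SE 0.12), did not pass the test (adjusted p = 0.066). The 3 genes descend from a single bacterial S18 gene and their products occupy different places in the ribosome. Mrps28 rose by 1.71 (SE 0.21, adjusted p = 0.00035), and Mrps22, a gene mutated in inherited cardiomyopathy, by 1.58 (SE 0.11, adjusted p = 2.96e-05). Mrps22 was at 7.70, 8.28 and 8.18 normalised CPM in BMM and at 27.3, 22.8 and 22.7 in OC. Mrps5, which lines the mRNA channel, and Mrps27, an RNA-binding protein with pentatricopeptide repeats, were both about doubled (log2 1.13 and 1.06, SE 0.07 and 0.10).

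Members chosen for their roles all rose in Bap1flox apart from Mrps18c. Mrpl3 (log2 0.75), Mrpl44 (0.73), Mrps7 (0.65) and Mrps16 (0.63), each linked to inherited disorders of mitochondrial translation, rose by similar amounts. Mrpl45, which faces the inner membrane, rose by 0.82, and Mrps30 by 0.64. Mrps34, which stabilises the small subunit, rose by 1.10, while Mapk8ip3, which shares its exonic bases together with Nme3, fell by 0.72 on the log2 scale (adjusted p = 0.00021). The level of Mrps34 was 19.2, 19.97 and 19.7 normalised CPM in Bap1flox OC 1 to 3 but 12.1, 13.7 and 9.18 in OC 4 to 6, which overlap the 8.22 to 10.2 of BMM, and with all 6 OC libraries its log2 fold change was 0.81 (SE 0.26, adjusted p = 0.022). Mrps36 rose by 0.72. Smaller changes were those of Mrps12, a protein of the decoding centre (0.42, SE 0.11, adjusted p = 0.015), and Mrpl58, a peptidyl-tRNA hydrolase that rescues stalled ribosomes (0.37, SE 0.10, adjusted p = 0.014). The smallest rises that passed were those of Mrpl48 (0.27), Mrpl4 (0.29), Mrpl39 (0.32) and Mrps9 (0.36), each with an SE of about 0.07.

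Mrpl24 (chr3:87919506-87923672, plus strand, GRCm38), a protein of the tunnel exit, was the exception that fell. Its level was 39.9, 35.1 and 39.0 normalised CPM in Bap1flox BMM and 27.0, 28.7 and 27.9 in OC 1 to 3. The libraries did not overlap and the log2 fold change was -0.46 (SE 0.07, adjusted p = 0.0014). Rrnad1, which shares 26.3% of its exonic bases, was also lower (log2 -0.37, adjusted p = 0.0048), and the part of the overlap was not tested. Besides Mrps18c, the members that did not pass were Mrpl28 (log2 0.16), Mrps15 (0.11), Mrpl27 (0.01) and Mrps21 (-0.03), with 95% intervals of -0.03 to 0.35, -0.13 to 0.35, -0.18 to 0.21 and -0.20 to 0.13.

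**Figure D2:**
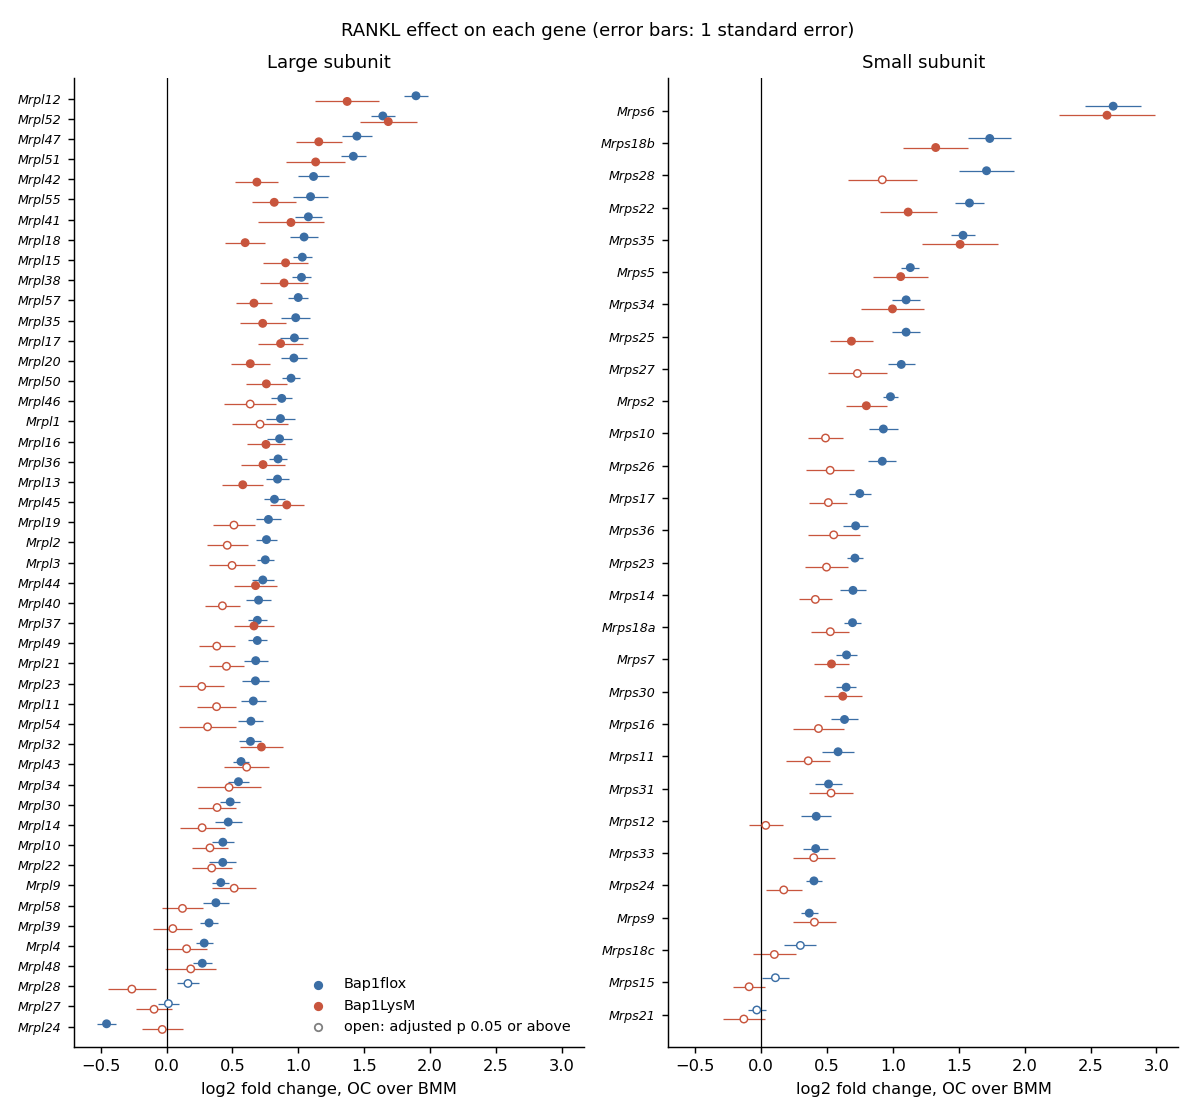
Log2 fold change of OC over BMM (x axis) for each of 76 members (y axis), with Mrpl genes on the left and Mrps genes on the right, in Bap1flox (blue, 3 against 3 libraries) and Bap1LysM (red, 2 against 3). Panel titles follow the names, so Mrps18a, Mrps30 and Mrps36 stand under the small subunit although their products lie elsewhere. Filled points passed an adjusted p of 0.05, and bars are 1 standard error. In Bap1flox 70 points are filled to the right of 0 and 1, Mrpl24, to the left; in Bap1LysM 32 are filled.

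In Bap1LysM cells the same comparison rested on 2 OC libraries (1 and 2) against 3 BMM libraries. There 32 of 76 members were called higher, and none lower by edgeR, DESeq2 or voomWithQualityWeights, beside 19.6% of all genes tested, 11.4% as higher and 8.2% as lower. A further 24 had an unadjusted p under 0.05, all with a rise, which makes 56 members beside 4805 of the 12998 genes tested. The median log2 fold change was 0.53 and in 61 members every OC library was above every BMM library, beside 29.5% of all genes. The largest values were those of Mrps6 (2.62, SE 0.37, adjusted p = 0.013), Mrpl52 (1.68, SE 0.21, adjusted p = 0.011), Mrps35 (1.51, SE 0.29, adjusted p = 0.023), Mrpl12 (1.37, SE 0.24, adjusted p = 0.020), Mrps18b (1.32, SE 0.25, adjusted p = 0.023) and Mrpl47 (1.16, SE 0.17, adjusted p = 0.014). With Bap1LysM BMM 1 and OC 1 left out, in a fit with the Bap1flox libraries chosen after seeing the data, Mrps6 was at 3.13, Mrps35 at 1.98, Mrpl12 at 1.61, Mrps18b at 1.62 and Mrpl47 at 1.30 on the log2 scale. With all 5 libraries the smallest rises that passed were 0.53 in Mrps7, 0.58 in Mrpl13, 0.60 in Mrpl18, 0.62 in Mrps30, 0.64 in Mrpl20 and 0.66 in Mrpl37. Mrpl24 was at 32.2, 32.9 and 39.0 normalised CPM in Bap1LysM BMM and at 31.2 and 36.4 in OC, which overlap (log2 -0.03, 95% interval -0.41 to 0.35). Mrps12 was at 25.2, 23.9 and 24.9 in BMM and at 24.5 and 25.9 in OC, which overlap too (log2 0.03, 95% interval -0.28 to 0.35).

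The number of calls in Bap1LysM depended on the libraries in the fit. Leaving out Bap1LysM OC 1, the library with the high Lyz2, gave 47 members higher, beside 13.1% of all genes, and a median of 0.75, and leaving out OC 2 gave 3, beside 2.39%. Each of these fits sets a single OC library against 3 BMM libraries, which supply the spread, and assumes that the lone library varies like them. Without BMM 1 there were 6, beside 5.2%. Without BMM 2 or 3 edgeR called no member, where it called 0.373% and 0.888% of all genes higher. With the spread estimated over all 11 libraries of replicates 1 to 3, 59 members were higher beside 21.2% of all genes, and with Bap1LysM BMM 1 and OC 1 both left out of that fit (chosen after seeing the data) 61 were, beside 22.3%, with a median of 0.72.

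The difference between the responses of the genotypes was tested directly as an interaction over those 11 libraries. No gene passed among 13635 (edgeR), at which 1718 genes and 11 members had an unadjusted p under 0.05. DESeq2 called 117 genes and 0 members, and voomWithQualityWeights 0 genes. The members' interaction values had a median of -0.21 on the log2 scale, against 0.04 for all genes. Of 76 members 68 were below 0, which means a lower log2 fold change with RANKL in Bap1LysM. Without Bap1LysM BMM 1 and OC 1 the median was -0.05 and 51 of 76 were below 0. With all 11 libraries, Mrps28 had the lowest value (-0.81, 95% interval -1.59 to -0.02, adjusted p = 0.39) and Mrpl24 the highest (0.41, 95% interval 0.07 to 0.75, adjusted p = 0.35). Mrps12 was at -0.40 (95% interval -0.75 to -0.05, adjusted p = 0.36). Without both number 1 libraries these 3 values were -0.69, 0.47 and -0.34 (adjusted p = 0.42, 0.25 and 0.42). A difference in response between the genotypes was not shown for any single member.

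Because so many members moved together, the letters of known binding motifs were counted in RefSeq promoter windows (GRCm38.p6, 250 bases before to 50 after each annotated start, both strands), which matched 68 of 77 members. CCGGAAG, the core bound by ETS factors such as GABPA, was in the windows of 25 members (36.8%), beside 9.93% of all 27025 genes in the table and 20.5% of the 9743 matched genes that were expressed here. AAGATGGC, bound by YY1, was in 12 members (17.6%), beside 3.19% of all genes and 5.39% of expressed genes. The palindrome bound by NRF1 was in 3 members (4.41%, beside 1.07% and 2.40%), the E-box CACGTG in 5 (7.35%, beside 8.09% and 11.8%) and the ERR letters AAGGTCA in 4 (5.88%, beside 5.38% and 3.89%). No window of a member held the ETS and YY1 letters overlapping each other, although both end or begin with AAG. A match of letters is a description and shows no binding.

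The windows of 5 members are shown from 100 bases before the start to 25 bases into the transcript, with the ETS letters in capitals. They were chosen because these members were named for their response, level or role and hold the letters close to the start. In Mrpl52 (chr14:54426809-54426933, plus strand) the letters occur on the opposite strand at 47 bases before the start and again just after it. In Mrps22 (chr9:98601655-98601779, minus) and Mrpl34 (chr8:71464826-71464950, plus) they lie 11 and 37 bases upstream. In Mrpl58 (chr11:115403652-115403776, plus) they occur in a pair, and in Mrps12 (chr7:28741797-28741921, minus) at the start itself.
Mrpl52: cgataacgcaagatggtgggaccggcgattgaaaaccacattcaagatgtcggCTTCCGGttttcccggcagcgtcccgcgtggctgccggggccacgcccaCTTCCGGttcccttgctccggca
Mrps22: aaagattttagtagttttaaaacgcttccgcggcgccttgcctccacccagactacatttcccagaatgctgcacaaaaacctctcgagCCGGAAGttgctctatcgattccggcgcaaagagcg
Mrpl34: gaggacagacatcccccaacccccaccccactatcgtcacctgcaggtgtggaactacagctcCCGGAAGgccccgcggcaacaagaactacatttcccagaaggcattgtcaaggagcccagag
Mrpl58: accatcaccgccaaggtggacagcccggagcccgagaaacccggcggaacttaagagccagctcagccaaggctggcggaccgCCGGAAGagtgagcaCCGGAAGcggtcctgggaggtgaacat
Mrps12: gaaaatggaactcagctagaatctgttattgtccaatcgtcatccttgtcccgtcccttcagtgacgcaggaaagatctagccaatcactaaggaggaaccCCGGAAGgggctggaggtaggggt

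The YY1 letters, in capitals, lay just inside the transcript of Mrps27 (chr13:99344781-99344810, plus) and Mrps18a (chr17:46110999-46111028, plus), shown over 30 bases around the start.
Mrps27: cttccacttggtgcgctccAAGATGGCggc
Mrps18a: cggtcaggtgcgttccAAGATGGCggccct
Of the strongest responders, Mrps6 held none of the 5 motifs, Mrpl12 held only the ERR letters, at 33 bases into the transcript, and Mrps18b held the ETS letters on the opposite strand at 43 bases. Nor did Mrpl24, which fell, hold any of them.

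The effect of Bap1 loss in OC, which was the study's main comparison, was smaller and went both ways. Of 76 members, 1 was higher and 3 were lower in 5 Bap1LysM than in 6 Bap1flox OC libraries, beside 7.12% and 8.67% of 12919 genes tested (15.8% in either direction). With these 4, 8 members had an unadjusted p under 0.05, beside 3932 of all genes tested. The median log2 fold change was -0.07, against -0.01 for all genes, with 53 of 76 members below 0.

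Mrps12 (chr7:28739641-28741820, minus strand, GRCm38), which shapes the site where codons are read, fell most. It was at 31.1 to 40.0 normalised CPM in Bap1flox OC (median 34.4) and at 24.5, 25.9, 28.0, 27.6 and 20.9 in Bap1LysM OC 1, 2, 4, 5 and 6. Every Bap1LysM library was below every Bap1flox library, as in 5.37% of all genes, and the log2 fold change was -0.49 (SE 0.10, adjusted p = 0.0086). Mrps27 (chr13:99344786-99415561, plus strand) was at 22.7 to 31.6 (median 26.5) against 18.1, 20.4, 21.3, 21.2 and 20.9, also without overlap (log2 -0.42, SE 0.10, adjusted p = 0.015). Of its exonic bases 22.6% are shared with the gene 6430562O15Rik, and the part of these bases in its value was not tested. The gap between the genotypes was wider among replicates 4 to 6 than among replicates 1 to 3. Mrpl16 (chr19:11770415-11774944, plus strand), a protein of the large subunit core, was at 22.3 to 29.8 (median 28.0) against 20.5, 22.0, 21.5, 23.5 and 23.2, and here the groups overlapped (log2 -0.31, SE 0.09, adjusted p = 0.046). The call of Mrpl16 was lost without any 1 of 8 of the 11 libraries, with RLE factors (adjusted p = 0.066) and without the filter (0.132).

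Mrpl24, the gene that fell with RANKL, was the member that was higher. It was at 26.3 to 28.9 normalised CPM in Bap1flox OC (median 28.2) and at 31.2, 36.4, 36.5, 37.3 and 32.7 in Bap1LysM OC. All 5 libraries lay above all 6, as in 4.11% of all genes (log2 0.29, SE 0.08, adjusted p = 0.025). The call was lost without Bap1flox OC 1 or 5 or Bap1LysM OC 4 or 5 (adjusted p of 0.0515 to 0.0777), with upper-quartile factors (0.0816) and without the filter for expressed genes (0.106). In Bap1LysM OC the gene was thus nearer to its BMM level, which was 35.1 to 39.9 in Bap1flox. Rrnad1, which overlaps it, had a log2 fold change of 0.02 (adjusted p = 0.96) in the same comparison.

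**Figure D3:**
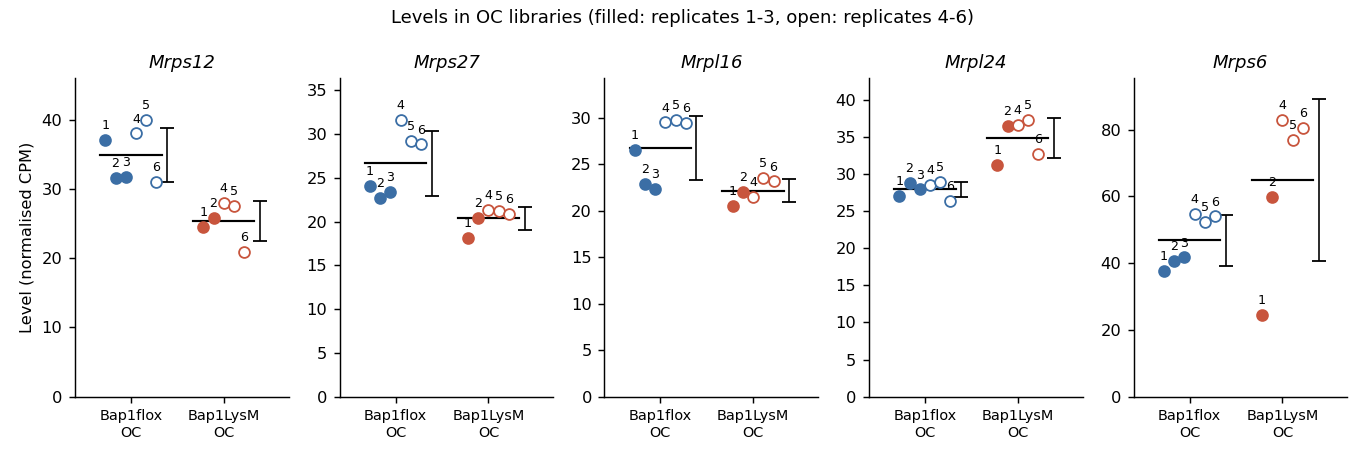
Level (y axis, normalised CPM from 0) of Mrps12, Mrps27, Mrpl16, Mrpl24 and Mrps6 in 6 Bap1flox and 5 Bap1LysM OC libraries. Numbers are label numbers, filled points replicates 1 to 3, open points 4 to 6, lines means and bars 1 SD. The Bap1LysM libraries lie below all Bap1flox libraries in Mrps12 and Mrps27 and above them in Mrpl24, and Mrps6 in Bap1LysM OC 1 lies apart at 24.6.

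The value of Mrps6 moved with a single library. In Bap1flox OC it was at 37.6 to 54.7 normalised CPM (median 47.0), and in Bap1LysM OC at 24.6 in library 1 and at 59.9, 82.9, 76.8 and 80.4 in libraries 2, 4, 5 and 6. With all libraries the log2 fold change was 0.43 (SE 0.25, adjusted p = 0.26). Without Bap1LysM OC 1 alone it was 0.64 (SE 0.12, adjusted p = 0.0048), and without any other library it did not pass. Without Bap1LysM OC 1 and with the library set as a term, a fit chosen after seeing the data, it was 0.55 (SE 0.06, adjusted p = 3.92e-05), and 7 members were called higher and 9 lower, beside 18.5% and 20.6% of all genes. Slc5a3, which shares bases with it, had a log2 fold change of 0.80 (SE 0.26, adjusted p = 0.054) with all libraries.

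The calls in OC grew when the library sets were modelled. With the set as a term, 2 members were higher and 11 lower, beside 16.6% and 17.1% of all genes (33.6% in all), and all 4 genes above were among them. Mrps15 (log2 -0.30, adjusted p = 0.0019), Mrpl11 (-0.30, adjusted p = 0.0075) and Mrps11 (-0.39, adjusted p = 0.013) were among the added lower ones, and Mrpl32 (0.29, adjusted p = 0.03) was the added higher one. With the replicate number as a block, 2 were higher and 11 lower, beside 16.1% and 16.7%. Within replicates 4 to 6 alone 4 were higher and 8 lower, beside 15.3% and 18.3% (33.7% in all). With voomWithQualityWeights, the test in the study's methods, 7 were higher and 15 lower where 54.9% of all genes were called. Within replicates 1 to 3 alone, with 3 against 2 libraries, no gene of 13605 was called by edgeR, the only test run there. In that fit 4 members had an unadjusted p under 0.05, and the number over all genes was not counted. Mrps12 (-0.43), Mrps27 (-0.30), Mrpl16 (-0.19) and Mrpl24 (0.26) kept their direction in that set. Without Bap1LysM OC 1 there were 3 higher and 2 lower members (10.6% and 13.3% of all genes), and Mrpl16 was no longer called (adjusted p = 0.055). The neutrophil markers given above were highest in Bap1LysM OC 4 to 6, and their part in these differences was not tested. In replicates 1 and 2 of Bap1LysM OC they summed to 175 and 178 normalised CPM, against 63.8, 122 and 160 in Bap1flox OC 1 to 3, so they were above the Bap1flox libraries of their own set too.

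Before RANKL, in BMM, no member passed the test between 3 Bap1LysM and 3 Bap1flox libraries, where 5.32% of 13028 genes were called (1.31% higher and 4.01% lower), and 14 members had an unadjusted p under 0.05, beside 3416 of all genes. The lean was upward. The median was 0.13 against -0.01 for all genes, with 56 of 76 members above 0. Without Bap1LysM BMM 1 the median was 0.12, with 56 members above 0 and again no call by edgeR, and with any 1 library left out it lay between 0.08 and 0.17. Neutrophil markers summed to 246, 222 and 320 normalised CPM in Bap1LysM BMM and to 79.1, 192 and 251.1 in Bap1flox BMM, and stromal markers to 357, 951 and 1260 against 478, 2365 and 2684. The part of these cells in the BMM values was not tested. Every Bap1LysM library was above every Bap1flox library in 27 members and below in 3, beside 17.2% and 16.9% of all genes. Mrpl3, a core protein of the large subunit, came closest, at 29.5, 29.7 and 28.8 normalised CPM in Bap1flox and 38.6, 39.3 and 35.2 in Bap1LysM (log2 0.35, SE 0.08, adjusted p = 0.059). Mrps28, with the largest difference, was at 5.02, 8.72 and 7.67 against 9.92, 15.2 and 10.2 (log2 0.71, SE 0.27, adjusted p = 0.16). With the replicate number as a block, 3 members were called higher, Mrpl3 (adjusted p = 0.046), Mrps28 (0.036) and Mrps25 (0.048), beside 5.47% of all genes. DESeq2 called 5 higher, where it called 15.9% of all genes (6.75% higher and 9.1% lower), and voomWithQualityWeights called Mrpl3, where it called 13.6% of all genes (5.53% higher). Mrps12, Mrps27 and Mrpl16, which were lower in Bap1LysM OC, had log2 fold changes of -0.03, 0.05 and -0.06 in BMM, and Mrpl24 had -0.14, none of which passed. The comparisons in BMM, in OC and with RANKL share libraries, so their values are given side by side only.

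Genes that work with the mitochondrial ribosome were taken from lists of known roles, whose counts stand beside 31.7% of all genes called higher and 32.9% lower with RANKL in Bap1flox. Among 6 subunits without an Mrp name 4 rose with RANKL in Bap1flox, among them the small subunit proteins Ptcd3 (log2 1.51, SE 0.11) and Dap3 (0.41, SE 0.07) and the large subunit protein Gadd45gip1 (1.00, SE 0.08). Of 28 assembly factors 14 rose and 2 fell. C1qbp, a matrix chaperone, rose by 1.90 and the rRNA methyltransferase Mrm3 by 1.74, whereas Rbfa and Ngrn fell by 0.55 and 0.34 on the log2 scale. Of 12 translation factors 9 rose, led by the elongation factors Gfm1 (1.46) and Tsfm (1.28). Of 22 genes for mitochondrial aminoacyl-tRNA synthesis 17 rose and 1 fell, with Mars2 (1.81) and Yars2 (1.32) the highest and Gatc (-0.25) the one that fell. Of 20 genes of mitochondrial transcription and mRNA stability 14 rose and 1 fell, with Tbrg4 (1.53) and Fastkd1 (1.4) at the top and the polymerase subunit Polg2 (-1.09) at the bottom.

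Ribosomal proteins of the cytosol rose as well, but by less. In Bap1flox 68 of 81 were called higher, beside 31.7% of all genes, with a median of 0.38 against 0.72 for the mitochondrial ones, and Rpl8 (0.77) and Rpl14 (0.74) changed most. The 13 mRNAs made from mitochondrial DNA, which these ribosomes translate, had a median of -0.13 and ranged from -0.57 to 0.50. In OC they summed to 9883, 9219, 33110, 36480 and 51470 normalised CPM in Bap1LysM 1, 2, 4, 5 and 6, each above the Bap1flox library of the same number (5764, 4012, 26030, 21940 and 34450). The sums differed more between the library sets than between the genotypes. The log2 fold changes of the 13 mRNAs, with a median of 0.66, had adjusted p-values of 0.10 to 0.54 in edgeR's test. That test had no term for the library set, so it does not settle whether these mRNAs differ by genotype. Between genotypes in OC, 2 of 28 assembly factors and 2 of 22 synthetase genes were called, beside 15.8% of all genes. The assembly factors Trmt61b (log2 -0.69, SE 0.17, adjusted p = 0.017) and Rbfa (-0.42, SE 0.09, adjusted p = 0.0086) were lower, and the synthetase gene Fars2 (0.30, SE 0.09, adjusted p = 0.041) was higher. The medians of translation factors, transcription genes and cytosolic ribosomal proteins were 0.11, 0.06 and -0.12.

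**Figure D4:**
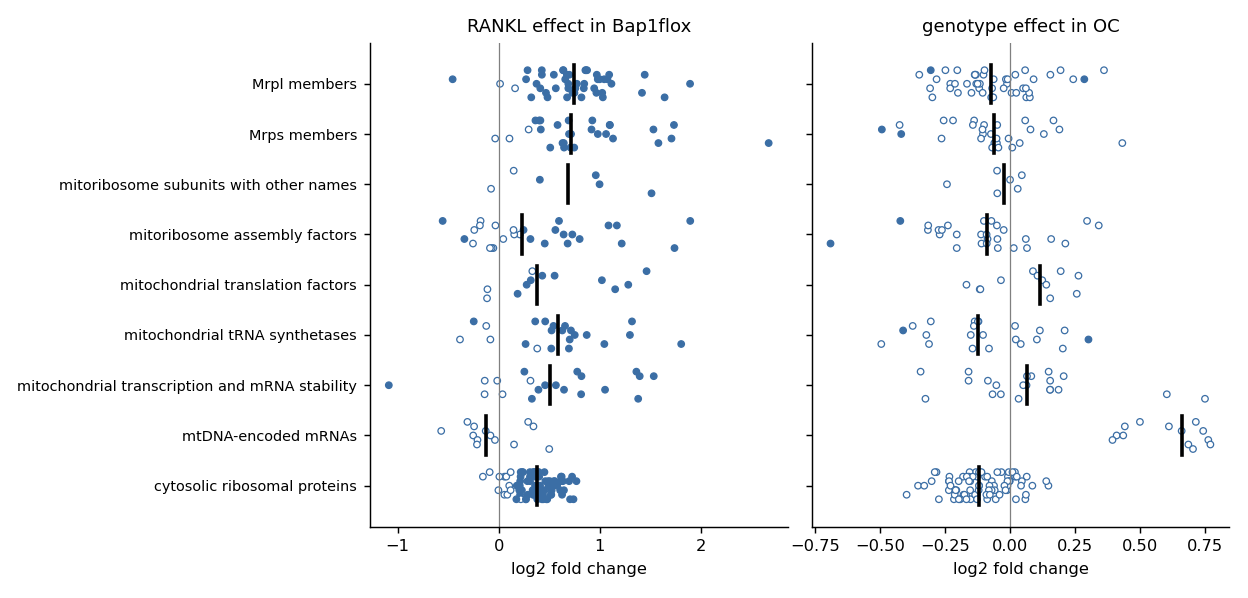
Log2 fold change (x axis) of each tested gene in the 2 groups of members and 7 related lists (y axis), for RANKL in Bap1flox (left, OC over BMM) and for genotype in OC (right, Bap1LysM over Bap1flox). Filled points passed an adjusted p of 0.05 and black bars are medians. On the left the medians of Mrpl and Mrps genes are 0.75 and 0.71 and that of cytosolic ribosomal proteins 0.38, and on the right 4 points of members are filled.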

How the data were processed

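RNA-seq count tables of 17 libraries were analysed. The authors aligned reads with STAR 2.5.1a to GRCm38 and counted unique, unambiguous reads per gene with featureCounts 1.4.6-p5. The deposited counts are raw. The deposited CPM and RPKM values were checked to follow from them and the gene lengths, and CPM served for the filter and RPKM for levels between genes. No column belonged to other samples.

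Symbols came from GENCODE M21 for 40340 identifiers, and 1048 had none. With 355 rRNA genes left out, genes with a CPM above 1 in at least 2 libraries (4 for OC) were tested by edgeR 4.0.16 (quasi-likelihood, TMM, Benjamini-Hochberg over all genes, threshold 0.05) in R 4.3.3. Standard errors are the log2 fold change over the root of F, and 95% intervals use the t quantile at the test's degrees of freedom. Values per library are CPM over the TMM factors of all 17 libraries. Depth was 37967542 to 61369441 counts per library.

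Groups came from the labels. Members, lists and letters were chosen with earlier results of these data known. In each comparison the 6 members with the highest and the 6 with the lowest log2 fold change among those called are named, with the 3 highest and 3 lowest by RPKM, members chosen for their role, those with under 10 counts, Bap1 and Lyz2, and the 2 genes of each list that changed most in each direction. Mrpl28, Mrps15, Mrpl27, Mrps21, Mrps25, Mrps11, Mrpl32, Dap3, Pprc1, Esrra, Gabpa, Yy1, Nrf1, Slc5a3, Rrnad1 and Mapk8ip3 were named after their values were seen.

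Same-numbered libraries deviated together from their group means, with correlations of 0.61, 0.73, 0.39, 0.67 and 0.48 in OC (numbers 1, 2, 4, 5 and 6), 0.54, 0.36 and 0.41 in BMM and 0.37, 0.24 and 0.31 between Bap1flox BMM and OC. In OC, numbers 4 and 6 correlated more with another number (0.67 and 0.68). The source of the pairing is the number in the titles, and in OC it cannot be told apart from the library set. Alternatives were DESeq2 1.42.0, voomWithQualityWeights of limma 3.58.1, other scalings and filters, other designs and each library left out. Apart from the interaction, the fits were run on simulated data with 200 changed genes. They called 94% to 100% of changes of 1 log2 unit and 18% to 61% of changes of 0.5, and 2.17% to 6.94% of calls were false. The simulation gave every gene the same spread between libraries and held no library sets, so these shares need not hold for the real data. A result on a withheld item is not reported here.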

Additional observations from a re-analysis of the deposited data

Results flagged for a closer look

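In the groups of 5 and 6 OC libraries, each value of the members named above and of their sum was examined for a library whose gap to the nearest other library was large against the range of its group (Dixon's 95% limit). Of 76 sets of values 6 had such a library, and chance alone gives about 5% of them. The summed level of the members was 2451 normalised CPM in Bap1LysM OC 1 and at least 3125 in the other Bap1LysM OC libraries. In the same library Mrps27 was at 18.1, with the nearest other at 20.4, and Mrpl34 at 27.7, with the nearest at 48.2. In Bap1flox OC 6, Mrpl12 was at 46.5, with the nearest other at 65.5, Mrps18a at 45.7, with the nearest at 52.9, and Mrpl37 at 60.5, with the nearest at 70.3. The library Bap1LysM OC 1 also had a high Lyz2 and the lowest osteoclast marker sum among OC, and what sets it apart was not tested.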

How the results depend on the processing

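With RANKL in Bap1flox, 69 to 72 members were called higher and 1 lower under all 11 alternatives and with each library left out. The median stayed within 0.70 to 0.83, and it was 0.78 with upper-quartile factors, 0.83 with all 6 Bap1flox OC libraries (chosen after seeing the data) and 0.72 to 0.79 with a library left out. The replicate block changed no call there. In Bap1LysM, 45 members were called higher with DESeq2, 30 with RLE factors, 28 with upper-quartile factors and 30 without a filter. The share of all genes called was not counted for these settings. In Bap1LysM, members called higher numbered 19 with voomWithQualityWeights (7.66% of all genes), 59 with all 11 libraries of replicates 1 to 3, 61 with both number 1 libraries left out as well (median 0.72), 24 with the replicate block (10.8%), whose 2 pairs cannot show pairing, and 0 to 47 with a library left out (medians 0.40 to 0.75), where both medians and the count of 47 rest on a single OC library. The interaction called 0 members throughout, and its median of -0.21 moved to -0.0499 without both number 1 libraries, and lay between -0.39 (without Bap1LysM OC 2) and -0.0529 (without Bap1LysM OC 1) with a library left out.

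In OC, members called higher and lower numbered 7 and 15 with voomWithQualityWeights, where 54.9% of all genes were called, 0 and 5 with upper-quartile factors, 0 higher without a filter, 2 and 11 with the library set as a term or the replicate block, 2 and 10 with all 17 libraries in a single fit, 0 and 0 in replicates 1 to 3, 4 and 8 in replicates 4 to 6, and 7 and 9 with the set as a term and Bap1LysM OC 1 left out (chosen after seeing the data). The share of all genes called was not counted for upper-quartile factors, no filter or the fit of 17 libraries, so those counts have no background beside them. With a library left out the counts were 0 to 3 and 2 to 8, and the median -0.10 to -0.01. The 8 were found without Bap1LysM OC 2, where 10.2% of all genes were called higher and 11.4% lower. Among the fits with a library left out, the share was counted only for this one and for that without Bap1LysM OC 1, given above. The call of Mrpl24 was lost without Bap1flox OC 1 or 5 or Bap1LysM OC 4 or 5, and that of Mrpl16 without any of those, Bap1flox OC 4 or 6, or Bap1LysM OC 1 or 6. With mitochondrially encoded genes left out, 3 of the 4 members called in OC by edgeR with all libraries were still called. In BMM, 5 members were higher with DESeq2, 1 with voomWithQualityWeights, 3 with the replicate block and 0 to 1 with a library left out (medians 0.08 to 0.17). Under these alternatives no called member named for either RANKL comparison or for OC changed direction, and no such count was made for BMM or the interaction, where no member was called by edgeR with all libraries. The cause of these shifts was not tested.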

Other observations

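Regulators of nuclear genes for mitochondrial proteins were also measured. Ppargc1b, a coactivator known for mitochondrial biogenesis in osteoclasts, rose with RANKL in Bap1flox by a log2 fold change of 3.88 (SE 0.17, adjusted p = 7.55e-06), and Myc, a transcription factor that drives ribosome production, by 3.17 (SE 0.19, adjusted p = 1.83e-05). The coactivator Pprc1 rose by 1.39 and the receptor Esrra by 0.55, whereas Nfe2l2, the regulator of antioxidant genes, fell by 0.83 on the log2 scale. Gabpa and Yy1, factors for the 2 motifs that the largest numbers of members held, had log2 fold changes of 0.11 (adjusted p = 0.26) and -0.01 (adjusted p = 0.93), and Nrf1 had 0.11 (adjusted p = 0.20). Of 9 regulators tested, 4 were higher and 1 lower in edgeR's test, beside 31.7% and 32.9% of all genes. In OC, Myc was lower in Bap1LysM (log2 -0.80, SE 0.17, adjusted p = 0.0096) and Ppargc1b had a log2 fold change of 0.02 (SE 0.19, adjusted p = 0.97). How the levels of these regulators bear on the members was not tested.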
